A study of Mus musculus with 2 samples.

Results

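Astrocytes clear glutamate from around synapses, take up potassium and move water and bicarbonate across their membranes, and they share small molecules through gap junctions. Slc1a2 and Slc1a3 encode the glutamate transporters GLT-1 and GLAST, Aqp4 the water channel of astrocyte endfeet, and Gja1 and Gjb6 the gap junction proteins connexin 43 and connexin 30. Slc4a4 encodes a sodium and bicarbonate cotransporter, Mlc1 a membrane protein of perivascular astrocyte processes, Aldh1l1 a folate enzyme widely used as an astrocyte marker, and Fgfr3 a receptor for fibroblast growth factors. These 9 genes were taken by symbol from a panel of 19465 genes measured in mouse brain. All 9 had counts, and none shared its symbol with another entry of the panel.

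The series holds 2 samples of brain from 6-month-old male mice, a G2-3 mouse (A53T alpha-synuclein) and a wild-type mouse, profiled with Visium CytAssist, in which pairs of gene probes are ligated on a methanol-fixed section and counted by molecular identifier (UMI) in a grid of barcoded spots. The count matrices deposited for both samples were the same file, so the difference between them is 0, below sampling noise, and they count as 1 sample here. The position lists differed: 751 of the 2969 tissue spots in the G2-3 list had no counts. Spots were taken from the wild-type list, but the genotype of the section cannot be told from these files, and no genotype comparison was made. With 1 section there are no replicates: spots share their section, and the intervals below cover counting error only. A spot is a small area that can hold several cells, so fewer astrocytes and less of an RNA per astrocyte cannot be told apart.

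The analysis used 2485 of 2722 barcoded spots, holding 20997947 UMIs with a median of 6686 per spot (range 1183 to 80174). Clustering of the spots gave 17 regions, each named here by its first 2 leading genes by fold outside the 9. The 9 genes, genes listed as their partners and cell type markers were left out before the 2000 variable genes that made the clusters were chosen. Genes with similar patterns, such as Fam107a and Sdc4, stayed in, so the regions are not independent of the 9 genes. Slc1a3 was the second leading gene of the Ddn/Gng7 region by fold. The Slc6a3/Th region (100 spots) had 7 of 9 ventral midbrain markers at least 2-fold above the other regions, and also 7 white matter markers. The Ddn/Gng7 region (141 spots) had 4 of 6 markers of neuropil, the zone of dendrites with few cell bodies, and lay around the C1ql2/Pcdh20 region (66 spots), which had 8 of 9 dentate gyrus markers. The Klk6/Trf region (187 spots) had 8 of 8 white matter markers, and the Mgp/Igf2 region (162 spots) had 7 of 7 markers of meninges and vessels. Cortex stands for 3 regions pooled, Clec18a/Igfn1 (170 spots, 7 of 8 upper-layer markers), Vxn/Myl4 (255 spots, 5 of 8 deep-layer markers) and Pirt/Nxph3 (87 spots, 3 of 6 layer 6b markers), 512 spots in all. Pirt/Nxph3 also had 4 deep-layer markers and 3 white matter markers at least 2-fold above the other regions. All 19 other astrocyte genes measured had counts in every region, which sums over many spots make likely, so this does not test the label astrocyte.

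Promoter windows of both glutamate transporters and both connexins are shown because the balance within each of these pairs differed between regions. Each is the 250 bases before a start site of the gene in RefSeq's table (GRCm38.p6), written 5′ to 3′ on the gene's strand, with capitals marking the motif matches. The Slc1a2 window (chr2:102706188-102706437, plus strand) ends at a start site 48199 bases inside the gene, so it is not the stretch before the gene's 5′ end. Which start site is used in brain was not tested. The capitals in the Slc1a2 window are 4 matches to the E-box CANNTG. The Slc1a3 window (chr15:8710808-8711057, minus strand) holds, in order, a match to TATAAA on the other strand, GGGCGG, TTCNNNGAA and CANNTG. The Gja1 window (chr10:56377050-56377299, plus strand) holds 1 CANNTG match that overlaps 1 TGANTCA match, and the Gjb6 window (chr14:57133612-57133861, minus strand) holds 1 CANNTG match.
Slc1a2: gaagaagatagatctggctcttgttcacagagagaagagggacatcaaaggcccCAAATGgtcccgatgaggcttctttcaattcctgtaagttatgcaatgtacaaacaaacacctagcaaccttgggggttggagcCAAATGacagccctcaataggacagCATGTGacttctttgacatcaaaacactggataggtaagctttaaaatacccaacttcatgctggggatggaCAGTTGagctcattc
Slc1a3: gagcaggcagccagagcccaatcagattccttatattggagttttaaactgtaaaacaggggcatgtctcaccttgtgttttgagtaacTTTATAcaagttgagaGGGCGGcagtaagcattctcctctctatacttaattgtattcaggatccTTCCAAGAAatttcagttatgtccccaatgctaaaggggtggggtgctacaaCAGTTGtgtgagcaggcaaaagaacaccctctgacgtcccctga
Gja1: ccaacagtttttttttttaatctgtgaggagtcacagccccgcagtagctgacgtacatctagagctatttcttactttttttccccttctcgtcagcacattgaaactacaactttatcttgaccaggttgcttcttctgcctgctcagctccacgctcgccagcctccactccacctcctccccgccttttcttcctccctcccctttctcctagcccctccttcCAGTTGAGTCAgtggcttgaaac
Gjb6: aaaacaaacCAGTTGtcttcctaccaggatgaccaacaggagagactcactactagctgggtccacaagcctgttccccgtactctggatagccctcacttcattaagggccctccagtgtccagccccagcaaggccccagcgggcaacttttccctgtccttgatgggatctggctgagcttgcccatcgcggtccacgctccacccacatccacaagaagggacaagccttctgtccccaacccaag

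Searched on both strands of all 32851 mouse promoters in the table, CANNTG matched 66.2%, GGGCGG 32.7%, TATAAA 12.4%, TTCNNNGAA 7.02% and TGANTCA 6.75%. TTGGCA (12.3% of promoters), ACAAAG (16.5%) and TGACGTCA (1.55%) matched none of these 4 windows. Guanine and cytosine made up 44.8% of the Slc1a2 window, 44.8% of the Slc1a3 window, 50.0% of the Gja1 window and 56.8% of the Gjb6 window, against a median of 52.4% over all promoters. The 4 windows held 1, 2, 6 and 5 CpG dinucleotides in that order, against a median of 6. The matches and base counts are described here as letters in these windows only, and those of Slc1a2 do not describe the stretch before its 5′ end. The genes themselves span chr2:102658239-102790784 (Slc1a2), chr15:8634124-8710807 (Slc1a3), chr10:56377300-56390419 (Gja1) and chr14:57123301-57133611 (Gjb6).

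Over all spots used, Slc1a2 gave 49941 UMIs, or 2378 counts per 1000000 UMIs (CPM), and was found in 99.2% of spots with a mean of 20.1 UMIs. Gja1 gave 6160 UMIs (82.3% of spots), Mlc1 3888 (70.0%), Gjb6 3774 (71.5%) and Fgfr3 3182 (65.8%). Slc1a3 gave 2634 UMIs (54.2% of spots), Aldh1l1 1949 (50.0%), Aqp4 1157 (29.98%) and Slc4a4 1007 (29.7%). Each gene has its own probes, so these totals set no level of a gene against another. They set the precision: a region's value for Aqp4 or Slc4a4 often rested on fewer than 100 UMIs.

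In CPM, taken over all UMIs of a region, the Ddn/Gng7 region was highest of the 17 regions for 6 of the 9 genes and the Mgp/Igf2 region for 2. Slc1a2 reached 8864 CPM in Ddn/Gng7 (95% interval 8597 to 9137), next 3587 in Mgp/Igf2 and 3124 in Pirt/Nxph3, and was lowest at 1107 in the Irx2/Cdh23 region, which had 6 of 6 pons and hindbrain markers, an 8-fold span. Neighbours in its order had ratio intervals that left out 1 in 5 of 16 pairs, so most adjacent positions were not apart beyond counting error. Among single spots of Ddn/Gng7 the Slc1a2 level ran from 3798 through a median of 8870 to 20216 CPM, and in cortical spots from 1057 through 2769 to 11563. These spot values overlapped, although the lower quartile in Ddn/Gng7 (6942) lay above the upper quartile in cortex (3536).

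Slc1a3 reached 723 CPM in Ddn/Gng7, 227 in Mgp/Igf2 and 163 in Penk/Adam33, and 4 of its 16 neighbouring pairs were apart. Its lowest value, 16.1 CPM in the Slc18a3/Prph region of 17 spots, rested on 2 UMIs. Single Ddn/Gng7 spots ran from 0 through a median of 564 to 2740 CPM, and cortical spots from 0 through 96.8 to 747. Of the connexins, Gja1 was highest in Ddn/Gng7 (1077 CPM), ahead of Mgp/Igf2 (727) and Klk6/Trf (472), whereas Gjb6 was highest in Mgp/Igf2 (593), ahead of Ddn/Gng7 (481) and Sp5/Sox14 (295). Both were lowest in the dentate C1ql2/Pcdh20 region, Gja1 at 125 and Gjb6 at 72.2 CPM.

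Aqp4 was highest in Mgp/Igf2 (251 CPM), Ddn/Gng7 (240) and Klk6/Trf (197) and lowest in the upper cortical Clec18a/Igfn1 region (15.1), a 16.5-fold span. Only 1 of its 16 neighbouring pairs was apart. Mlc1 (769 CPM), Fgfr3 (392) and Aldh1l1 (248) were each highest in Ddn/Gng7 and lowest in C1ql2/Pcdh20, at 86.2, 46.4 and 21.6 CPM in that order. Slc4a4 had another order, with 101 CPM in Slc6a3/Th, 89.2 in Tph2/Slc18a2, 84.8 in Ddn/Gng7 and 12.3 in Pirt/Nxph3. The Tph2/Slc18a2 region had 4 of 4 raphe markers at least 2-fold above the other regions, and also 7 white matter markers. Slc4a4 was not among the lowest in C1ql2/Pcdh20, with 69.5 CPM.

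**Figure D1:**
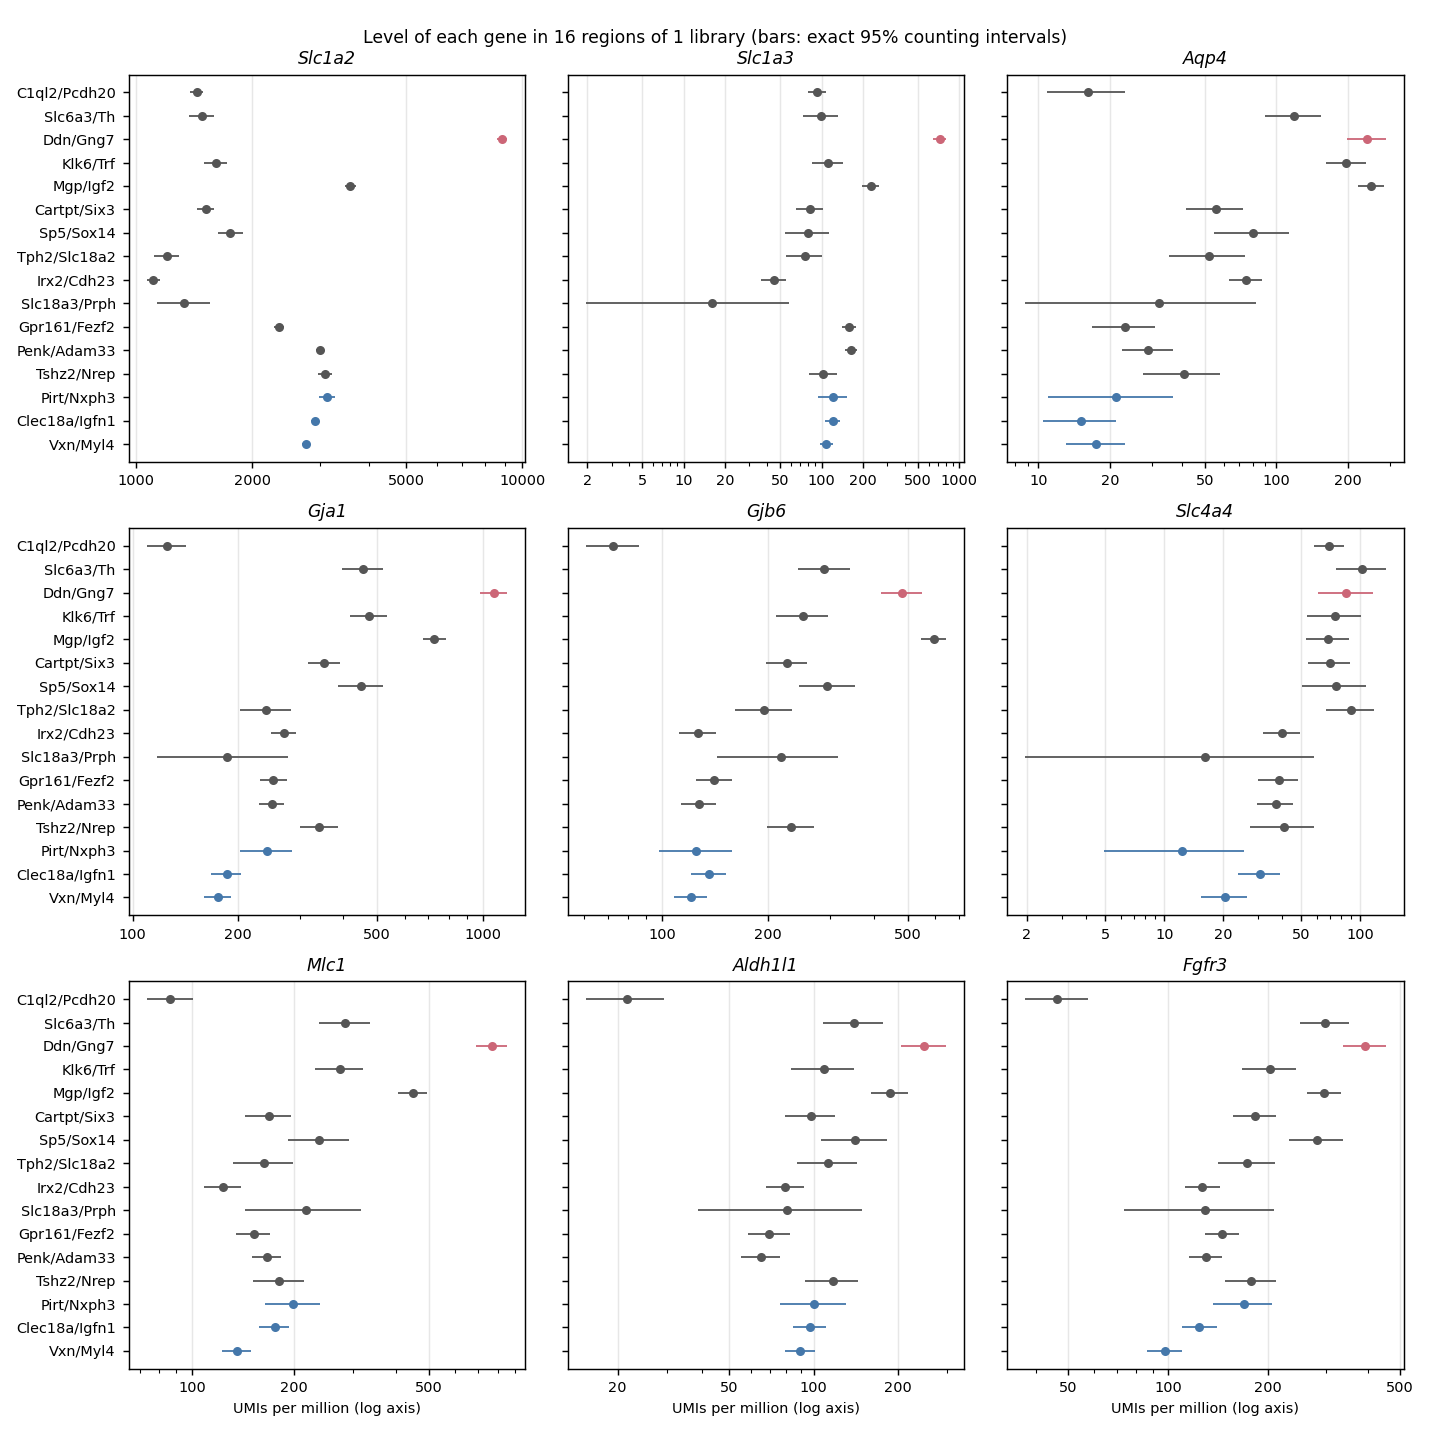
CPM (log axes) of the 9 genes in 16 of the 17 regions of the section. Points are region sums and bars exact 95% counting intervals, with Ddn/Gng7 in red and the 3 cortical regions in blue. Ddn/Gng7 lies farthest right for 6 of the genes, at 8864 CPM for Slc1a2.

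Counted per spot, the order of regions was another one, because regions differed in UMIs per spot. Slc1a2 averaged 40.6 UMIs per spot in Penk/Adam33, 40.3 in C1ql2/Pcdh20 and 37.1 in Clec18a/Igfn1, above the 29.7 of Ddn/Gng7, and 4.75 in Klk6/Trf. Slc1a3 averaged 2.62 UMIs in C1ql2/Pcdh20, 2.42 in Ddn/Gng7 and 2.22 in Penk/Adam33. Ddn/Gng7, first for both transporters per UMI, was thus not first per spot for Slc1a2, and for Slc1a3 it and C1ql2/Pcdh20 were not apart beyond counting error. Gja1 averaged 4.21 UMIs per spot in Mgp/Igf2 and 3.60 in Ddn/Gng7, and Mlc1 2.60 and 2.57. Slc4a4 averaged 1.95 UMIs per spot in C1ql2/Pcdh20, the region with the most UMIs per spot, against 0.503 in the next region, Penk/Adam33. The median spot held 3177 UMIs in Ddn/Gng7 and 24338.5 in C1ql2/Pcdh20.

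**Figure D2:**
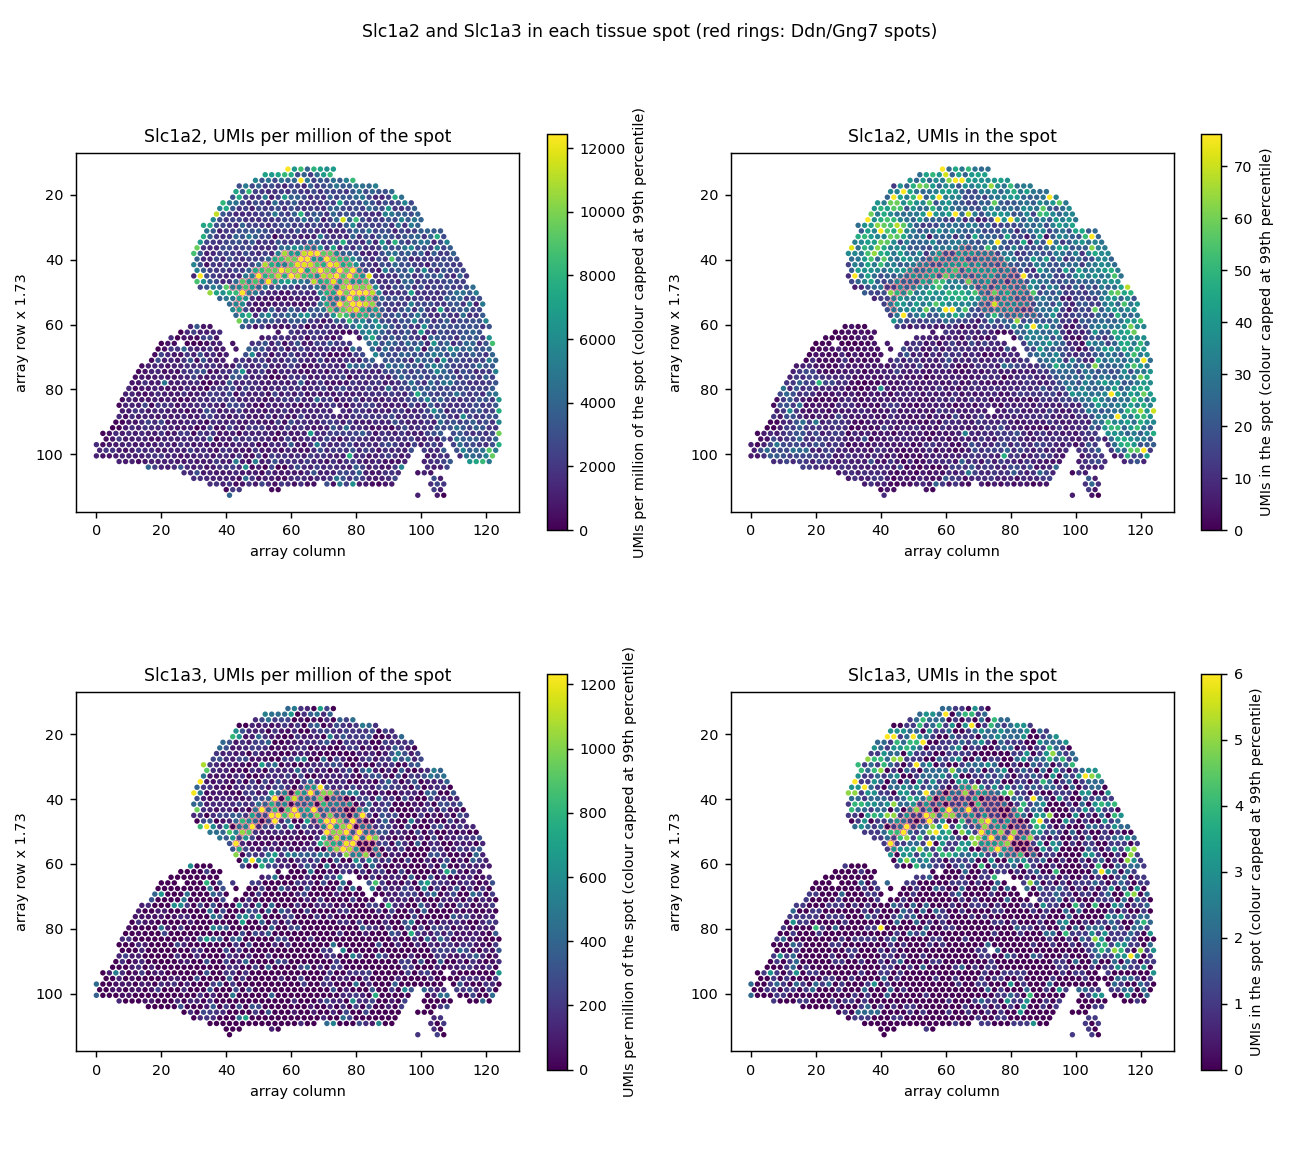
Slc1a2 and Slc1a3 in each of the 2485 spots at their place on the array, as CPM of the spot (left) and as UMIs in the spot (right), with Ddn/Gng7 spots ringed in red and colours capped at the 99th percentile. The ringed arc is bright on the left, where its median is 8870 CPM for Slc1a2, and not on the right.

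The first comparison set the region with ventral midbrain markers, where dopamine neurons lie, against cortex, whose spots serve every later comparison with cortex too. Aqp4, Slc4a4, Fgfr3, Gja1 and Gjb6 took at least 2-fold larger shares of the UMIs in Slc6a3/Th, and no gene of the 9 was 2-fold lower. Of 7806 genes with at least 100 counts over both, 9.2% were at least 2-fold higher and 11.3% at least 2-fold lower. Aqp4 had 118 CPM in Slc6a3/Th against 17 in cortex, from 56 and 95 UMIs (log2 ratio 2.80, 95% interval 2.30 to 3.29). Slc4a4 had 101 against 23.6 CPM (2.10, 1.60 to 2.59), and Fgfr3 298 against 115 (1.37, 1.09 to 1.63).

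The glutamate transporters did not follow. Slc1a2 had 1480 CPM in Slc6a3/Th against 2848 in cortex (log2 ratio −0.94, −1.06 to −0.84). Slc1a3 had 99.2 against 115 CPM (−0.21, −0.67 to 0.22), an interval that covers no difference. Relative to Slc1a3, Slc1a2 was therefore lower in Slc6a3/Th by a log2 difference of −0.74 (−1.18 to −0.26). Per spot the contrast was larger, 7.01 Slc1a2 UMIs in Slc6a3/Th against 31.1 in cortex, while Gja1 (2.15 against 2.03) and Gjb6 (1.37 against 1.39) were close. Spots of cortex held 2.31 times as many UMIs. In the higher array columns lay 2 of the 100 Slc6a3/Th spots and 450 of the 512 cortical spots. Region and place on the array thus cannot be told apart here. With trimmed-mean (TMM) scaling, with spots of at least 3000 UMIs, or with only the spots that held a UMI of Th or Slc6a3, Slc1a2 passed 2-fold lower, at −1.14, −1.03 and −1.16. The last of these settings left 3 of the 9 genes at least 2-fold higher.

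Other astrocyte genes were also higher in Slc6a3/Th: 18 of 19 had a ratio above 1 and 12 were at least 2-fold higher, with a median log2 ratio of 1.19. The median of the 9 genes was 1.19 too, and that of all genes −0.01. Slc6a11, a GABA transporter of astrocytes, had 2.81, S100b, a calcium-binding protein, 2.06 and Kcnj10, the potassium channel Kir4.1, 2.03. Summed markers of oligodendrocytes reached 16355 CPM in Slc6a3/Th against 3255 in cortex, with none of 11 at 0. Those of microglia reached 961 against 390 and of meningeal fibroblasts 4556 against 617 (3 of 9 with 100 counts over both). Their part in the result was not tested.

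Partner genes by function gave a mixed picture in Slc6a3/Th against cortex. Of 10 measured genes of the glutamate cycle and its ion supply, 8 were higher, 4 of them at least 2-fold, with Kcnj10 at 2.03 and Glud1 (glutamate dehydrogenase) at 1.26, and with Slc1a1, the neuronal glutamate transporter, at −0.93. Of 3 measured connexin partners all were higher, 1 of them at least 2-fold. Of 8 partners of Mlc1 and Aqp4, 7 were higher, among them Hepacam, the adhesion protein that binds Mlc1, at 0.98, and only Kcnj10 passed 2-fold. Acid and base genes split 3 higher and 4 lower, with the carbonic anhydrases Car2 at 1.62 and Car4 at −1.26. The fibroblast growth factor system split 5 and 5, with Fgfr2 at 2.08, Fgf1 at 1.92 and the downstream transcription factor Etv5 at −1.13. Of 5 folate genes 2 were higher and 3 lower, with Mthfd2 at 1.20 and Mthfd1l at −0.93.

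In the Ddn/Gng7 neuropil region all 9 genes were at least 2-fold above cortex. Of 7793 genes compared, 9.94% were at least 2-fold higher and 17.3% at least 2-fold lower. The median log2 ratio of the 9 genes was 1.92, that of all genes −0.22. Aqp4 had 240 CPM in Ddn/Gng7 against 17 in cortex (log2 ratio 3.82, 3.41 to 4.23). Slc1a3 had 723 against 115 (2.66, 2.46 to 2.85), Gja1 1077 against 186 (2.53, 2.38 to 2.69) and Mlc1 769 against 158 (2.29, 2.11 to 2.47). The smallest ratio was that of Aldh1l1, 248 against 93.4 CPM (1.41, 1.11 to 1.70).

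Slc1a2 had 8864 CPM in Ddn/Gng7 against 2848 in cortex (log2 ratio 1.64, 1.59 to 1.69), a smaller ratio than that of Slc1a3. The difference between the log2 ratios of both transporters was −1.02 (−1.22 to −0.82). Per spot, Slc1a2 had 29.7 UMIs in Ddn/Gng7 against 31.1 in cortex, and Slc1a3 2.42 against 1.25. Spots of cortex held 3.27 times as many UMIs, and per spot only Aqp4 stayed at least 2-fold higher in Ddn/Gng7 (0.801 against 0.186 UMIs). Aldh1l1 turned to −0.30 per spot on the log2 scale.

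All 19 other astrocyte genes were higher in Ddn/Gng7 than in cortex, 18 at least 2-fold, with a median log2 ratio of 1.92. Among partners, Glud1 had 2.01 and the glutamine transporter Slc38a3 1.85, with Slc1a1 at −1.21. Hepacam had 1.88, Kcnj10 1.85 and Dtna, the dystrobrevin of endfeet, 1.10. Acid and base genes went mostly the other way: 5 of 7 were lower, 4 of them at least 2-fold, with the bicarbonate transporters Slc4a8 at −1.94 and Slc4a3 at −1.86, and Car2 at 2.24. Slc4a4, with 84.8 CPM in Ddn/Gng7 against 23.6 in cortex (1.85, 1.30 to 2.37), went with the astrocyte genes. Summed microglial markers were 1437 CPM in Ddn/Gng7 against 390 in cortex and oligodendrocyte markers 7787 against 3255. Summed markers listed for reactive astrocytes were 1513 against 97.0, but 2 of the 5 were at 0 in both and only 2 had 100 counts. Those of mural cells were 377 against 42.3 (1 of 7 with 100 counts) and of meningeal fibroblasts 4074 against 617 (3 of 9). Their part in the result was not tested.

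Slc6a3/Th set directly against Ddn/Gng7 had 5 genes at least 2-fold lower and none at least 2-fold higher among the 9, where 12% of 2154 genes compared were at least 2-fold lower and 11.4% higher. Slc1a3 (99.2 CPM in Slc6a3/Th against 723 in Ddn/Gng7) and Slc1a2 (1480 against 8864) had the lowest log2 ratios, −2.86 and −2.58. Fgfr3 differed least of the genes with 100 counts, with 298 against 392 CPM (−0.40, −0.72 to −0.07). Slc4a4 had 101 against 84.8 CPM (0.26, −0.38 to 0.90) on only 88 counts. The difference of the transporters' log2 ratios was 0.28 (−0.18 to 0.77), so their balance was not shown to differ between these regions at this depth.

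The dentate granule region, set against the neuropil around it, had 8 of the 9 genes at least 2-fold lower in CPM, and 0 higher, where 11% of 4744 genes compared were at least 2-fold lower and 22.8% higher. Aqp4 had 16.2 CPM in C1ql2/Pcdh20 against 240 in Ddn/Gng7 (log2 ratio −3.89, −4.52 to −3.30), and Aldh1l1 21.6 against 248 (−3.52, −4.08 to −2.99). Slc1a2 had 1433 against 8864 (−2.63, −2.70 to −2.56). All 16 other astrocyte genes with enough counts were at least 2-fold lower too, with a median of −3.03, against −3.08 for the 9 genes. A mean C1ql2/Pcdh20 spot held 28108 UMIs against 3346 in Ddn/Gng7, 8.40 times as many. Per spot most of these differences were small: Gja1 averaged 3.52 UMIs in C1ql2/Pcdh20 against 3.60 in Ddn/Gng7, Fgfr3 1.30 against 1.31, and Slc1a2 40.3 against 29.7. Aqp4 stayed lower per spot, with 0.455 UMIs in C1ql2/Pcdh20 against 0.801 in Ddn/Gng7 (−0.82, −1.45 to −0.23).

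Slc4a4 was the exception among the 9 genes in the dentate region. It had 69.5 CPM in C1ql2/Pcdh20 against 84.8 in Ddn/Gng7 (log2 ratio −0.29, −0.81 to 0.26), and per spot 1.95 UMIs against 0.284 (2.78, 2.26 to 3.33). The per-spot value carries the 8.40 times greater depth of C1ql2/Pcdh20. In CPM the median log2 ratio of all 4744 genes compared was 0.37, and 24.3% of them had a lower ratio than Slc4a4. Slc4a4 thus stood out beside the other astrocyte genes, not among all genes. Per 1000 UMIs of the 19 other astrocyte genes it had 23.7 UMIs in C1ql2/Pcdh20 against 3.84 in Ddn/Gng7, with 4.08 in cortex. Of 7 other acid and base genes, 5 were higher in CPM in C1ql2/Pcdh20 than in Ddn/Gng7, 3 of them at least 2-fold (Car4 at 1.61, Slc4a10 at 1.30 and Slc4a3 at 1.29), and 2 were at least 2-fold lower (Car2 at −2.90 and Slc4a2 at −1.62). Glutamatergic neuron markers summed to 6828 CPM in C1ql2/Pcdh20 against 8046 in Ddn/Gng7, but of the 3 with enough counts 2 were higher in C1ql2/Pcdh20 (Nrgn at 1.41 and Slc17a7 at 0.96) and Camk2a was lower (−1.61). Their part in the result was not tested.

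**Figure D3:**
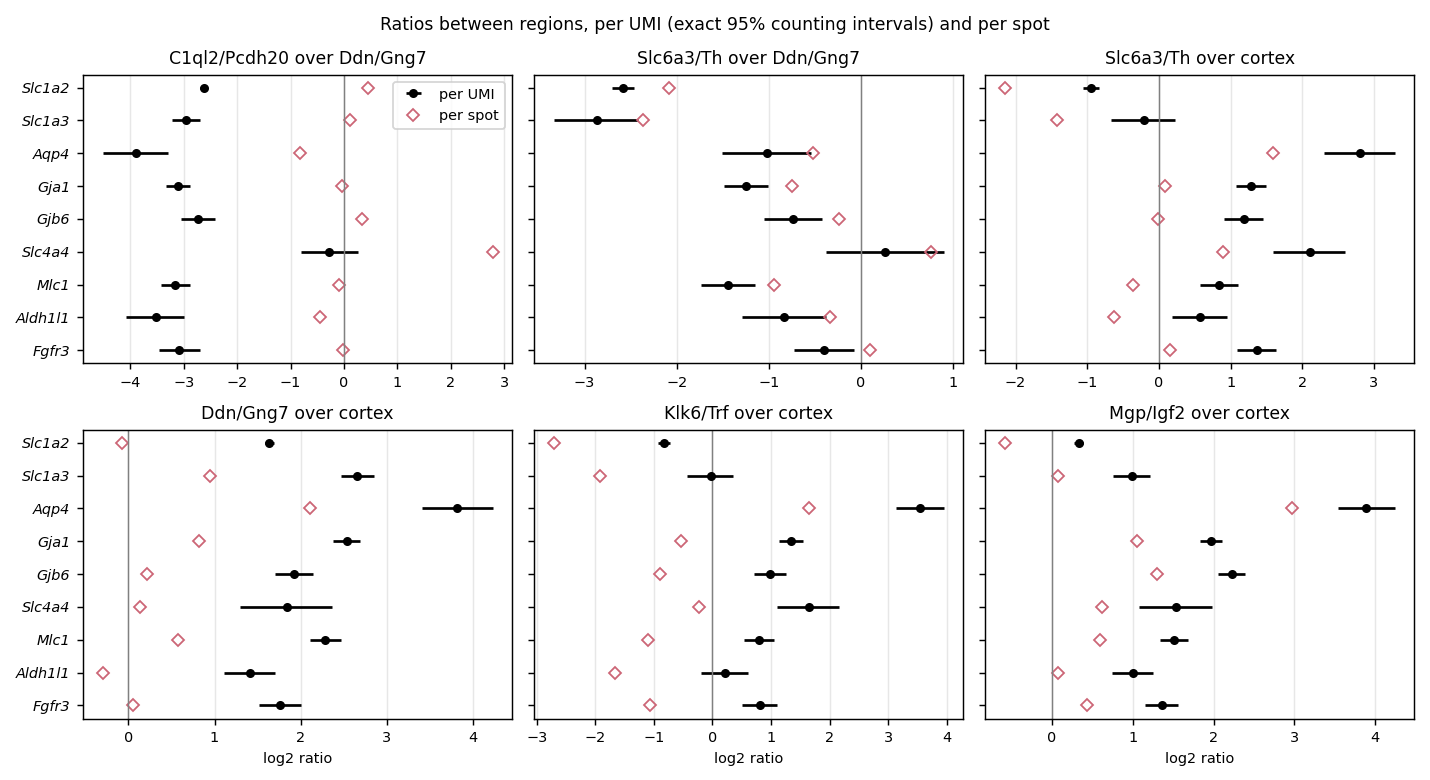
Log2 ratios of the 9 genes between regions, per UMI (black points with exact 95% counting intervals) and per spot (open red diamonds). Per UMI all 9 lie right of 0 in Ddn/Gng7 over cortex, and Slc4a4 is the gene nearest to 0 in C1ql2/Pcdh20 over Ddn/Gng7, at −0.29.

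White matter against cortex gave 3 genes at least 2-fold higher in CPM, Aqp4, Slc4a4 and Gja1, and 0 at least 2-fold lower, where 9.75% of 7857 genes compared were at least 2-fold higher and 18.7% lower. Aqp4 had 197 CPM in Klk6/Trf against 17 in cortex (log2 ratio 3.54, 3.13 to 3.95), the largest of the 9. Slc1a2 had 1606 against 2848 (−0.83, −0.93 to −0.73), and Slc1a3 112 against 115 (−0.03, −0.43 to 0.34). Spots of cortex held on average 3.70 times as many UMIs as Klk6/Trf spots, and the median log2 CPM ratio of all genes was −0.19. Per spot 5 of the 9 genes, Slc1a2 among them, were at least 2-fold lower. Slc1a2 had 4.75 UMIs per spot in Klk6/Trf against 31.1 in cortex. No share over all genes was taken per spot, so this count is not set apart from the difference in depth. The Slc1a2 difference was seen in the lower array columns only: there, 154 Klk6/Trf spots gave −1.02, while in the higher columns 33 spots gave 0.11 (−0.07 to 0.29). The reference changed too, as 450 of the 512 cortical spots lay in the higher columns. Oligodendrocyte markers summed to 46146 CPM in Klk6/Trf against 3255 in cortex. Those of meningeal fibroblasts summed to 10916 against 617 (3 of 9 with enough counts). Those listed for reactive astrocytes summed to 2799 against 97.0 (2 of 5 with enough counts). Klk6/Trf also had 2 markers of meninges and vessels at least 2-fold above the other regions. The part of these cell types in the result, that of Aqp4 included, was not tested.

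The meningeal and vessel region had 6 of the 9 genes at least 2-fold above cortex and 0 below, where 9.59% of 8131 genes compared were at least 2-fold higher and 10.5% lower. Aqp4 had 251 CPM in Mgp/Igf2 against 17 in cortex (log2 ratio 3.88, 3.53 to 4.24), Gjb6 593 against 127 (2.22, 2.06 to 2.38) and Gja1 727 against 186 (1.97, 1.83 to 2.11). Aldh1l1 and Slc1a3 lay just under 2-fold, at 1.00 and 0.99. Slc1a2 differed least, with 3587 against 2848 CPM (0.33, 0.28 to 0.39). In the 46 Mgp/Igf2 spots whose neighbours all belonged to the region, Slc1a2 turned to −0.29. Per spot, Aqp4, Gja1 and Gjb6 stayed at least 2-fold higher, and Slc1a2 turned to −0.58, with 20.8 UMIs in Mgp/Igf2 against 31.1 in cortex. Meningeal fibroblast markers summed to 47022 CPM in Mgp/Igf2 against 617 in cortex and mural markers to 1153 against 42.3, and their part was not tested.

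Within cortex the upper Clec18a/Igfn1 region and the deep Vxn/Myl4 region differed little: 0 of the 9 genes were 2-fold apart, where 1.94% of 7161 genes compared were at least 2-fold higher in the upper region and 2.19% lower. Slc4a4 had 30.8 CPM in the upper against 20.3 in the deep region (log2 ratio 0.60, 0.07 to 1.13), Mlc1 175 against 136 (0.37, 0.16 to 0.58) and Fgfr3 124 against 97.8 (0.35, 0.10 to 0.59). Slc1a2 had 2899 against 2755 CPM (0.07, 0.03 to 0.12). Aqp4 had 83 counts over both regions, under the 100 asked of the genes compared. Per UMI, intervals of Slc1a3, Aqp4, Gja1, Gjb6 and Aldh1l1 covered a ratio of 1. Upper spots held 1.15 times as many UMIs. Per spot, Slc1a3 (log2 ratio 0.35, 0.11 to 0.59), Gja1 (0.28, 0.08 to 0.47) and Gjb6 (0.37, 0.14 to 0.60) were higher in the upper region. So was Aldh1l1 per spot (0.31, 0.04 to 0.58), but not Aqp4 (−0.01, −0.69 to 0.65).

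The balance of the glutamate transporters was read as Slc1a2 UMIs per Slc1a3 UMI, whose level depends on the probes and whose differences between regions do not. It was lowest in Ddn/Gng7, at 12.3 (95% interval 11 to 13.7), and 24.8 (23 to 26.9) in cortex. Slc6a3/Th had 14.9 (11.1 to 20.5), Gpr161/Fezf2, a region with 5 of 8 hippocampal pyramidal markers, 14.7 (13.1 to 16.6), and C1ql2/Pcdh20 15.4. The 3 cortical regions had 24.0, 25.3 and 25.7, and Tshz2/Nrep had 29.9 (23.8 to 38.1), the highest of the regions with more than 2 Slc1a3 UMIs. Klk6/Trf had 14.3 (11.1 to 18.8), Mgp/Igf2 15.8, Tph2/Slc18a2 15.8 and Penk/Adam33 18.3. The intervals of these 4 regions, and those of Ddn/Gng7, Gpr161/Fezf2, C1ql2/Pcdh20 and Slc6a3/Th, lay below that of pooled cortex. For the connexins, Gja1 UMIs per Gjb6 UMI were 2.24 (1.91 to 2.63) in Ddn/Gng7, 2.14 in Irx2/Cdh23, 1.96 in Penk/Adam33, 1.23 in Mgp/Igf2 and 1.46 in cortex. These are the 4 genes whose promoter windows are printed above.

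**Figure D4:**
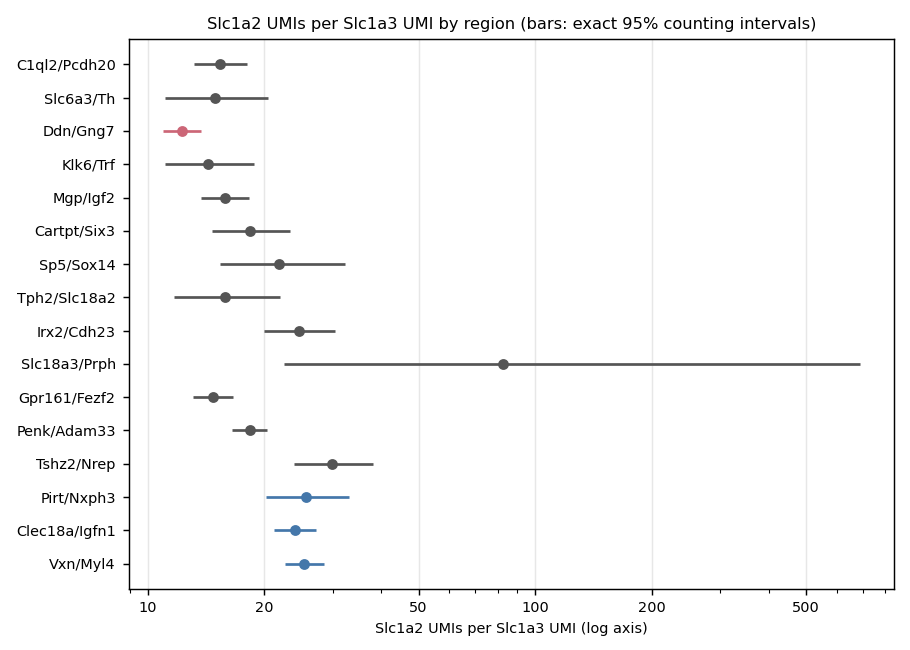
Slc1a2 UMIs per Slc1a3 UMI in 16 of the 17 regions (log axis), with exact 95% counting intervals, Ddn/Gng7 in red and the 3 cortical regions in blue. Ddn/Gng7 is lowest at 12.3, the cortical regions lie between 24.0 and 25.7, and the wide bar of Slc18a3/Prph rests on 2 Slc1a3 UMIs.

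Set against the 19 other astrocyte genes instead of all UMIs, the pattern of several genes changed. Slc1a2 per UMI of those genes was lower in Slc6a3/Th than in cortex by a log2 ratio of −2.21 (−2.33 to −2.09), in Klk6/Trf by −2.13 and in Mgp/Igf2 by −1.03. This was not particular to Slc6a3/Th: Tph2/Slc18a2 had −2.14, Sp5/Sox14 −1.92, Cartpt/Six3 −1.86 and Irx2/Cdh23 −1.83. In Ddn/Gng7 Slc1a2 was at −0.30 and in C1ql2/Pcdh20 at −0.01, so the high Slc1a2 CPM in Ddn/Gng7 did not exceed that of the other astrocyte genes. Slc1a3 was at 0.72 in Ddn/Gng7 and 0.68 in C1ql2/Pcdh20, but at −1.47 in Slc6a3/Th. Low Slc1a3 values were also those of Irx2/Cdh23 (−1.82), Sp5/Sox14 (−1.73), Tph2/Slc18a2 (−1.49) and Cartpt/Six3 (−1.43). Aqp4 was higher than in cortex by 1.54 in Slc6a3/Th, 1.88 in Ddn/Gng7, 0.91 in C1ql2/Pcdh20, 2.23 in Klk6/Trf and 2.52 in Mgp/Igf2. In these 5 regions Gja1 lay between 0.02 and 0.60, Mlc1 between −0.51 and 0.35 and Fgfr3 between −0.49 and 0.10. Aldh1l1 was lower than in cortex in all 5, from −1.14 in C1ql2/Pcdh20 to −0.37 in Mgp/Igf2, with each interval below 0.

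**Figure D5:**
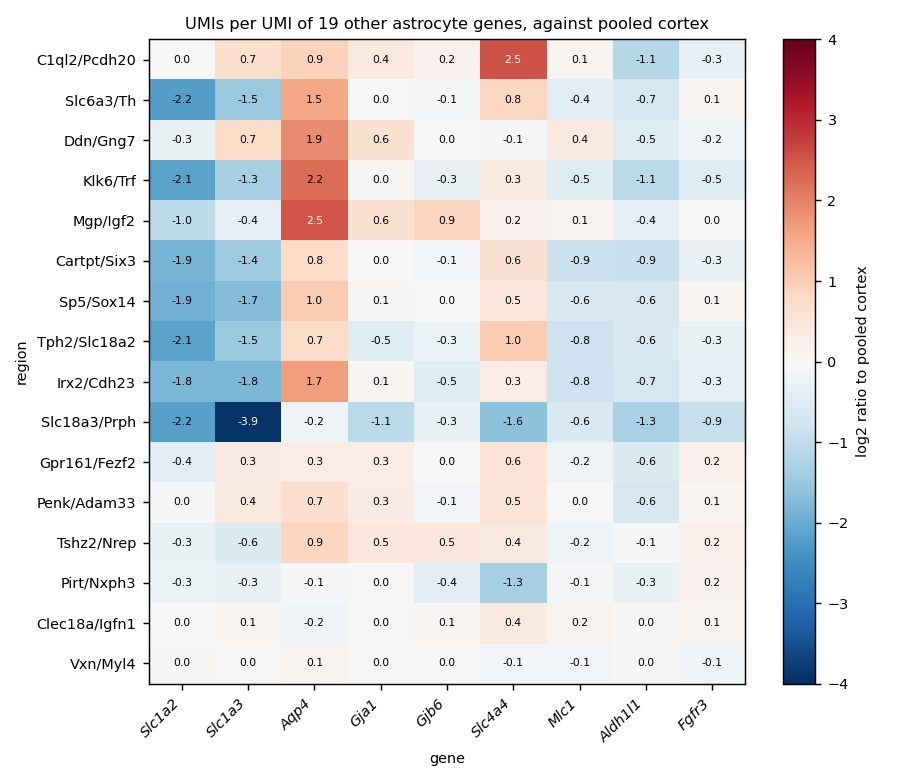
UMIs of each of the 9 genes per UMI of 19 other astrocyte genes in 16 of the 17 regions, as log2 ratios to pooled cortex (blue lower, red higher). The Slc1a2 column is blue in Slc6a3/Th (−2.21), Tph2/Slc18a2 (−2.14) and Klk6/Trf (−2.13) and near white in C1ql2/Pcdh20 (−0.01), and the highest Slc4a4 value is that of C1ql2/Pcdh20 (2.54).

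Distance to the granule spots was measured in steps of the spot grid, where 1 step is the neighbouring spot. Among Ddn/Gng7 spots, Slc1a3 had 823 CPM at 1 step (22 spots, 651 to 1025), 881 at 2 steps, 665 at 3, 793 at 4, 790 at 5, 564 at 6 and 460 at 7 or more (22 spots, 310 to 657). Slc1a2 had 7674 CPM at 1 step, 9316 at 3 steps and 8248 at 7 or more. The near and far Slc1a3 intervals overlap slightly, and the values between them did not run in order. Around the meningeal spots, spots of all other regions had 82.8 CPM of Aqp4 at 1 step (68.7 to 98.9), 33.5 at 3 steps and 40.1 at 7 or more. Within upper cortex alone Aqp4 had 6.96 CPM at 1 step, from 3 UMIs, against 24.6 (13.5 to 41.3) at 7 or more, so the high values beside the meningeal spots were not seen there.

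As a description over the 17 regions, which share a library and differ in depth, log2(CPM + 10) of Aldh1l1 and Fgfr3 correlated most among the 9 genes (r = 0.94), then those of Gja1 and Fgfr3 (0.92), Aqp4 and Gja1 (0.91) and Gja1 and Gjb6 (0.90). Slc1a2 and Slc1a3 had 0.86, Slc1a2 and Aqp4 0.20, and Slc1a2 and Slc4a4 −0.12. Correlation with the log10 of a region's median UMIs per spot ran from −0.83 for Fgfr3 to −0.74 for Mlc1 and Gjb6 in 6 of the genes, and was −0.40 for Slc4a4, −0.26 for Slc1a3 and −0.16 for Slc1a2. Of 6878 other genes with at least 500 UMIs, those most like Slc1a2 were Fam107a (0.97), Ppp1r9b (0.93), the spine protein spinophilin, and Ezr (0.93), which links membrane to actin. Slc1a3 was most like Spen, Prex2 and Mfge8, each at 0.92. Aqp4 was most like Dbi (0.96), Sept2 (0.94) and Itih5 (0.93), and Slc4a4 most like Rlim (0.93), Igsf1 (0.87) and Mboat2 (0.85). Sdc4, a cell surface proteoglycan, was among the 3 most like Gja1 (0.96), Mlc1 (0.96) and Gjb6 (0.93), beside Asrgl1 (0.95) and Axl (0.95) for Gja1, Axl (0.95) for Gjb6 and Prdx6 and Rin2 (0.95 each) for Mlc1. Ndrg2 was among the 3 most like Fgfr3 (0.97) and Aldh1l1 (0.92), with Asrgl1 (0.94) for Fgfr3 and Epas1 (0.90) for Aldh1l1. With rank correlation, 0 to 2 of each gene's 3 stayed the same.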

How the data were processed

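The authors deposited count matrices of UMIs per gene and barcode, made with Space Ranger 3.1.1 per the file headers, on build mm10 per the submitters' processing notes. Counts were used as deposited. The 9 genes and all gene lists were chosen with earlier results of these data known.

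Spots marked as tissue in the wild-type list with at least 500 UMIs were kept (2 of 2487 were left out). Region clustering used scanpy 1.11.5 (genes in at least 10 spots, counts scaled to 10000, 2000 variable genes, 30 principal components, 15 neighbours, Leiden resolution 1, seed 0). Leiden ran through igraph 0.11.9. UMIs were summed per region, and a marker or gene counted as higher at 2-fold. Ratios of shares have exact conditional 95% intervals from scipy 1.17.1, a procedure tested on simulated data. PCR copies are collapsed by UMI, so intervals cover the counting of molecules only. Region totals lay between 124079 and 2852173 UMIs. Genes needed at least 100 counts over both regions to enter the comparison of all genes. With 1 library no test across samples was possible, and no p-value is given.

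Named genes are the 9 genes, for each the 3 others with the highest correlation over regions among genes with at least 500 UMIs, and up to 3 genes of each partner list with the largest ratios, plus single partners that run against their list. The acid and base genes and neuron markers named for the dentate region and the values by distance were chosen after values were seen. Alternatives were values per spot, TMM scaling (edgeR 4.0.16), UMI and count minimums of 3000 and 20, all barcodes, Leiden resolutions 0.6 and 1.5, interior spots, array columns below 69 or from 69 on, and spots with Th or Slc6a3. Promoters, gene starts and coordinates come from RefSeq tables (GRCm38.p6). The alternate position list was not used for spots. Some genes, and the name of a region with 371 spots, are not reported here.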

Additional observations from a re-analysis of the deposited data

Results flagged for a closer look

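The 235 barcodes that the wild-type list does not mark as tissue, which entered no comparison above, held UMIs of all 9 genes. Each sum was above the floor of 3 counts, but that floor only replaces a count of 0 in ratios. Sums over so many barcodes make this likely, so it does not test for signal above background. They held 697435 UMIs in all, with a median of 2507 per barcode (range 11 to 21341), and 119 of them were marked as tissue in the G2-3 list. Slc1a2 gave 2141 UMIs there (3070 CPM), Gja1 347 (498), Gjb6 286 (410), Mlc1 242 (347) and Fgfr3 162 (232). Slc1a3 gave 112 UMIs (161 CPM), Aldh1l1 99 (142), Aqp4 88 (126) and Slc4a4 34 (48.8). Over the spots used, the levels were 2378 CPM for Slc1a2, 293 for Gja1, 180 for Gjb6 and 55.1 for Aqp4. In CPM the levels outside the list were thus of the same order as on tissue or higher. Per barcode all 9 genes were lower there, Slc1a2 with 9.11 UMIs against 20.1 over the spots used and Aqp4 with 0.374 against 0.466.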

How the results depend on the processing

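Of the counts, medians and transporter differences of the 7 comparisons, 229 values stayed near the main ones under the alternatives, 44 moved and 2 turned sign. Of the values of single genes, 452 stayed, 150 moved and 19 turned sign. The cause was not tested where none is given. Depth per spot differed between all regions compared, which is what separates values per spot from values per UMI. Shares over all genes were taken per UMI only. The counts of genes per spot below thus have no such share beside them and carry the differences in depth.

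Per spot, Slc6a3/Th over cortex had 1 gene at least 2-fold higher, 2 lower and a median log2 ratio of −0.020, with Gjb6 at −0.020, Mlc1 at −0.36 and Aldh1l1 at −0.63. Ddn/Gng7 over cortex had 1 gene higher and a median of 0.21, with Slc1a2 at −0.070 and Aldh1l1 at −0.30. Slc6a3/Th over Ddn/Gng7 had 2 genes lower and a median of −0.52, with Fgfr3 at 0.10. C1ql2/Pcdh20 over Ddn/Gng7 had 1 gene higher, 0 lower and a median of −0.010, with Slc1a2 at 0.44, Slc1a3 at 0.12 and Gjb6 at 0.33, and Slc4a4 at 2.78. Klk6/Trf over cortex had 1 gene higher, 5 lower and a median of −1.07, with Gja1 at −0.54, Gjb6 at −0.90, Slc4a4 at −0.23, Mlc1 at −1.09 and Fgfr3 at −1.07. Mgp/Igf2 over cortex had 3 genes higher and a median of 0.59, with Slc1a2 at −0.58.

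TMM scaling moved the median of the 9 genes from 1.19 to 0.99 in Slc6a3/Th over cortex and from −1.02 to −1.17 in Slc6a3/Th over Ddn/Gng7, and turned no direction. It gave 1 gene lower in Slc6a3/Th than in cortex, as did spots of at least 3000 UMIs, which also gave 1 gene lower and a transporter difference of −1.32 in Klk6/Trf over cortex. With only spots holding Th or Slc6a3, Slc6a3/Th over cortex had 3 genes higher and 1 lower. Interior spots alone gave Aldh1l1 −0.068 in Slc6a3/Th over cortex, medians of 2.22 for Ddn/Gng7 over cortex, −3.77 for C1ql2/Pcdh20 over Ddn/Gng7 and 1.33 for Mgp/Igf2 over cortex, where Slc1a2 was −0.29. In Klk6/Trf over cortex they gave 1 gene lower and a difference of −1.20. Leiden resolution 0.6 gave 3 genes lower in Slc6a3/Th than in Ddn/Gng7, and all barcodes a median of 1.09 in Mgp/Igf2 over cortex.

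In the lower array columns, Ddn/Gng7 over cortex had a median of 2.30 and a difference of −1.23, and Mgp/Igf2 over cortex 1.79 and −1.48. Klk6/Trf over cortex had 6 genes higher, 1 lower, a median of 1.23 and a difference of −1.19 there. In the higher columns Klk6/Trf over cortex had a median of 0.43, a difference of −0.22, Slc1a2 at 0.11 and Gjb6 at −0.31, and Mgp/Igf2 over cortex a difference of −0.13. A minimum of 20 counts instead of 100 tests more genes and put more of them at least 2-fold apart: 2900 against 1601 in Slc6a3/Th over cortex, 3603 against 2123 in Ddn/Gng7 over cortex, 1768 against 504 in Slc6a3/Th over Ddn/Gng7, 3527 against 1603 in C1ql2/Pcdh20 over Ddn/Gng7, 3656 against 2233 in Klk6/Trf over cortex, 3082 against 1637 in Mgp/Igf2 over cortex and 791 against 296 in upper over deep cortex.

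Not run, for fewer than 10 spots in a region, were Slc6a3/Th over cortex and over Ddn/Gng7 and C1ql2/Pcdh20 over Ddn/Gng7 in the higher columns, Mgp/Igf2 over cortex at resolution 0.6, and upper over deep cortex in the lower columns. No paired analysis was possible because both samples hold the same matrix and no test was made.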
